A study of Mus musculus with 10 samples.

Results

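Fos, Fosb, Jun, Junb and Jund encode subunits of the AP-1 transcription factor, Egr1, Nr4a1, Atf3 and Ier2 encode other nuclear proteins made early after a stimulus, and Dusp1 encodes a phosphatase that switches off MAP kinases. These 10 genes were picked by symbol, out of 33393 genes in the files, and followed in sorted CD34- HSCs of mice labelled as lacking Regnase-1 and of controls. They hold 26 of the 95912 transcripts listed. RNA was sequenced from Lin- Sca-1+ c-Kit+ CD34- Flt3- bone marrow cells of individual 8-week-old C57BL/6 mice, 5 labelled Reg1Δ/Δ (Vav1-iCre with both Reg1 alleles floxed) and 5 Reg1flox/flox controls without the Cre. Vav1-iCre acts in all blood cells, so the deletion was not limited to HSCs, and the floxed alleles were carried by both genotypes. The sample names give 2 library sets, with 3 mice per genotype in set 1 and 2 per genotype in set 2.

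Immediate-early genes are transcribed within minutes of a signal, without new protein synthesis, because the factors that switch them on (SRF with its TCF partners, and CREB) are already in the nucleus and are activated by MAP kinases and other kinases. Their mRNAs are short-lived, often through AU-rich elements in the 3′ UTR. Fos proteins bind DNA as partners of Jun proteins, whereas Jun proteins can also pair among themselves. In HSCs, Egr1 and Nr4a1 have been tied to quiescence.

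Regulatory letters near the starts of these genes are shown first, as background, and no link between them and the levels was tested. RefSeq promoter windows (GRCm38.p6) were found for 8 of the 10 genes, Egr1 and Ier2 having none in the table used. The RefSeq start lay within 47 bases of the start of the most abundant coding GENCODE transcript for 7 of them, but 1210 bases upstream of it for Jund, so the Jund window is not next to that start and the counts over the 8 windows include it. The 250 bases before the start of 4 genes are printed 5′ to 3′ on the gene's own strand, with motif matches in capitals. Dusp1 is shown because it alone among the 8 held a full CRE, the CREB site TGACGTCA, at positions −143 to −136 from its start. Nr4a1 is shown for its 4 copies of the shorter TGACG, which read CGTCA on the strand printed, Fos for its 2 copies, and Jun for TGACATCA, an AP-1-like element known from this promoter.
Dusp1 (chr17:26508473-26508722, minus strand): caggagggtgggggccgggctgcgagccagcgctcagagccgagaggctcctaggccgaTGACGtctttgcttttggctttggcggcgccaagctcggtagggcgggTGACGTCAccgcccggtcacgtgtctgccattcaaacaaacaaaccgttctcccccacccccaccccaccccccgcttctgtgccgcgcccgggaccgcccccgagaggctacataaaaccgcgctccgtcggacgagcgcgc
Nr4a1 (chr15:101266596-101266845, plus strand): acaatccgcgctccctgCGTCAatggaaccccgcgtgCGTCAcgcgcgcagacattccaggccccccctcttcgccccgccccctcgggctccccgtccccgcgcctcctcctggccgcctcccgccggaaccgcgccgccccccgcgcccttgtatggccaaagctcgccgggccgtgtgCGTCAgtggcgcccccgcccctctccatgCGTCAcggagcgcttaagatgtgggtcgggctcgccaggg
Fos (chr12:85473640-85473889, plus strand): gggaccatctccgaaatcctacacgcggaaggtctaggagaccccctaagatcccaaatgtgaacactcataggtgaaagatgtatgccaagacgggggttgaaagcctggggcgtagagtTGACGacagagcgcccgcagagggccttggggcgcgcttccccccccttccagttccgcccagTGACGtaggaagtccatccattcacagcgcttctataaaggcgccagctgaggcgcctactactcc
Jun (chr4:95052223-95052472, minus strand): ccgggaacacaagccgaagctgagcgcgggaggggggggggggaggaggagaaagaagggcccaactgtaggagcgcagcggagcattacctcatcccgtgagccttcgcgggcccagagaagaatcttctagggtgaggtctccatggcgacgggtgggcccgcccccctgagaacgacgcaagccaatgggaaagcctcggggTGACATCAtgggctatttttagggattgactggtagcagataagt

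Of the 32851 promoter windows in the table, 1.79% held TGACGTCA on either strand. The AP-1 site TGACTCA, whose other strand is TGAGTCA, was in 5.20% of all windows and in none of the 8. The CArG box bound by SRF was in 1.63% of all windows and the EGR site GCGTGGGCG in 0.612%, and again none of the 8 windows held them. The letters TGACG, added after the windows had been read, are part of the CRE and overlap it on both strands. They were in 20.8% of all windows and in 6 of the 8, namely Atf3, Fosb, Junb, Fos, Nr4a1 and Dusp1, and 1.03% of all windows had at least 3 copies, as Nr4a1 and Dusp1 did. TGACATCA, also added afterwards, was in 3.62% of all windows. The window covers 250 bases before and 50 after the start, and sites that lie further out, such as the serum response element of Fos, fall outside it.

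The mRNAs were compared through the most abundant protein-coding transcript of each gene, with sequences from GENCODE M21 on GRCm38. The 8 members that passed the filter on low values (below) had a median of 2 exons, against 8 for the 10436 coding genes compared, and Jun, Junb, Jund and Ier2 had a single exon. ATTTA, the core of AU-rich elements, occurred 4 times in the 3′ UTR of Fos, of Jun and of Dusp1, 3 times in Nr4a1, 2 times in Egr1 and in Junb, once in Jund, and not in Ier2. At least 3 copies were present in 50% of these 8 genes and in 29.1% of the 9407 coding genes with a 3′ UTR. The 30 bases of the 3′ UTR with the most copies are printed for the 4 of these genes with 3 or more, with ATTTA in capitals. In Fos and in Dusp1 a pair of copies overlaps in the run ATTTATTTA.
Fos (bases 643 to 672 after the stop codon): tgtgttttcaATTTATTTAttaagatggat
Dusp1 (bases 95 to 124 after the stop codon): gctggtccttATTTATTTAacacccccctc
Jun (bases 1028 to 1057 after the stop codon): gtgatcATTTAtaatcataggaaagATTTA
Nr4a1 (bases 449 to 478 after the stop codon): gATTTAtatttgtgtattttcctggATTTA

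The gene targeted by the Cre, Zc3h12a, did not check the labels. Its level was 1.28 to 1.83 TPM in the set 1 controls and 2.08 to 3.54 TPM in the set 1 libraries labelled Reg1Δ/Δ. In set 2 it was 1.48 and 6.07 TPM in controls against 10.3 and 8.52 TPM in libraries labelled Reg1Δ/Δ. The difference on the log2(TPM + 1) scale was 0.83 (limma, FDR = 0.0314), upward in libraries labelled as lacking the gene. Values are given per transcript and not per exon, and all directions below follow the labels. The libraries of the same set were more alike (mean r across genes 0.913) than libraries of different sets (mean r 0.673), and protein-coding transcripts held 46.2 to 49.1% of the TPM in set 1 and 73.5 to 81.1% in set 2. The levels are relative abundances (TPM, a share of reads per unit of transcript length), which add up to the same total in each library and keep no read number, so the depth is unknown.

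The cells behind the libraries also differed by their markers. The summed level of 7 HSC genes (all 6 tested lower, among them Hlf, Procr and Meis1) was 133 to 389.5 TPM in controls and 9.69 to 19.3 TPM in libraries labelled Reg1Δ/Δ, and in the latter Procr was at 0.108 to 1.36 TPM and Fgd5 at no more than 0.210 TPM. Fgd5, among the 6, passed the filter on low values only through controls. Slamf1 was at 3.09 ± 1.03 TPM against 8.19 ± 1.27 TPM in controls (SD, n = 5), and Meis1 was at 2.05 to 9.35 TPM. Hlf, an HSC transcription factor, averaged 117 ± 55.8 TPM in controls and 1.87 ± 0.882 TPM in the others (SD, n = 5). Of the 4 genes of the sort, 3 were lower in libraries labelled Reg1Δ/Δ (limma), namely Kit, on which the cells were gated as positive (252 ± 113 TPM in controls against 89.8 ± 26.1 TPM, SD, n = 5), and Cd34 and Flt3, on which they were gated as negative (142 ± 76.9 against 14.7 ± 4.18 TPM and 19.4 ± 8.90 against 1.66 ± 0.400 TPM). Ly6a, which encodes Sca-1, did not pass and had the higher mean in these libraries (88.0 ± 18.0 against 222 ± 176 TPM, FDR = 0.155). Over all genes tested, 37.9% were lower and 15.0% higher. Of the B lineage genes, 8 of 8 tested were lower, with sums of 183 to 1570 TPM against 2.75 to 23.9 TPM. Of 12 neutrophil and monocyte genes 9 were lower, or 8 without the control described next (3532 to 13894 TPM against 375 to 1246 TPM), and of 4 megakaryocyte genes all 4 (93.6 to 455 TPM against 19.1 to 98.8 TPM). Of 8 erythroid genes, 4, globin genes among them, were lower, whereas Klf1, Epor and Car1 were higher, and the sums were 3356 to 8324 TPM against 7060 to 9088 TPM. T cell genes were near 0 (at most 8.03 TPM summed). The part of these differences in the results below was not tested, and in RNA of sorted populations fewer cells of a type and less RNA per cell cannot be told apart.

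One control stood apart. In replicate 2 of the set 1 controls, 48 of the 12874 tested genes (0.373%) were at 5 TPM or more and at least 4-fold above both other controls of the set, and 7 of the 8 tested members were among them. For the other 5 libraries of set 1 the same count was 15 to 35. The 23 protein-coding genes of the 48 included, besides Fos, Jun, Junb, Jund, Egr1, Dusp1 and Nr4a1, the chemokine genes Ccl3 and Ccl4, Cd69, Rgs1, Rgs2, Nr4a2, Zfp36, Klf2, Klf6, Plk2 and Dusp5, which were singled out after their values were seen. Nr4a1 was 65.0-fold, Fos 47.3-fold, Egr1 16.6-fold and Dusp1 10.3-fold above the higher of the other set 1 controls. Jun was 7.72-fold, Jund 5.83-fold, Junb 4.59-fold and Ier2 3.13-fold above it. Marker sums of this library lay inside the range of the other 4 controls for HSC genes (349.6 TPM), for B lineage genes (1195 TPM) and for neutrophil and monocyte genes (5747 TPM), and below them for erythroid genes (3356 TPM). The fitted differences of the members, and the counts of the lists below, are therefore given with and without this library.

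At FDR under 0.05, 6 of the 8 tested members were lower in libraries labelled Reg1Δ/Δ and none was higher (limma on log2(TPM + 1), library set as covariate). The genes called lower were Fos, Dusp1, Jun, Nr4a1, Egr1 and Ier2, and each fell more than 2-fold. Over all 12874 genes, 37.9% were lower, 20.0% were lower by more than 2-fold, and 15.0% were higher, so a fall as such was common in these libraries. Fos and Nr4a1 reached 1 TPM in the 5 controls and in no other library, so they entered the test only through the group where they were high, and a difference was built into their being tested. Of the other 6 tested members, 4 were lower, with a median log2 fold change of −2.12 for the 6. With such genes left out of the background as well, 4298 of 12292 genes were lower, with a median of −0.21. Without the control that stood apart the same 6 of 8 genes were lower, against 35.7% of all genes, and 4 of the other 6, against 32.7% of the 12292, with medians of −1.54 and −0.21. Within set 1 alone the 6 differences ran from −4.07 (Fos) to −2.09 (Ier2), of which those of Fos, Nr4a1 and Egr1 did not pass, so that 3 of 8 members were lower there, against 38.3% of all genes. Without the outlying control set 1 gave −2.12 for Fos, −2.61 for Dusp1, −2.43 for Jun, −1.15 for Nr4a1, −1.51 for Egr1 and −1.47 for Ier2, all at FDR under 0.05, where 36.3% of all genes were lower. Within set 2 alone the 6 differences ran from −3.29 (Fos) to −1.25 (Ier2). Scalings that assume most genes to be level shifted the median of all genes to 0.14 (quantile normalization, 2636 genes lower and 3861 higher) or 0.10 (median-of-ratios, 3245 lower and 4334 higher), where 4 and 5 of the 8 members were lower and none was higher. Fosb and Atf3 did not reach 1 TPM in 5 libraries and were not tested, so the 8 are not all the members.

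**Figure D1:**
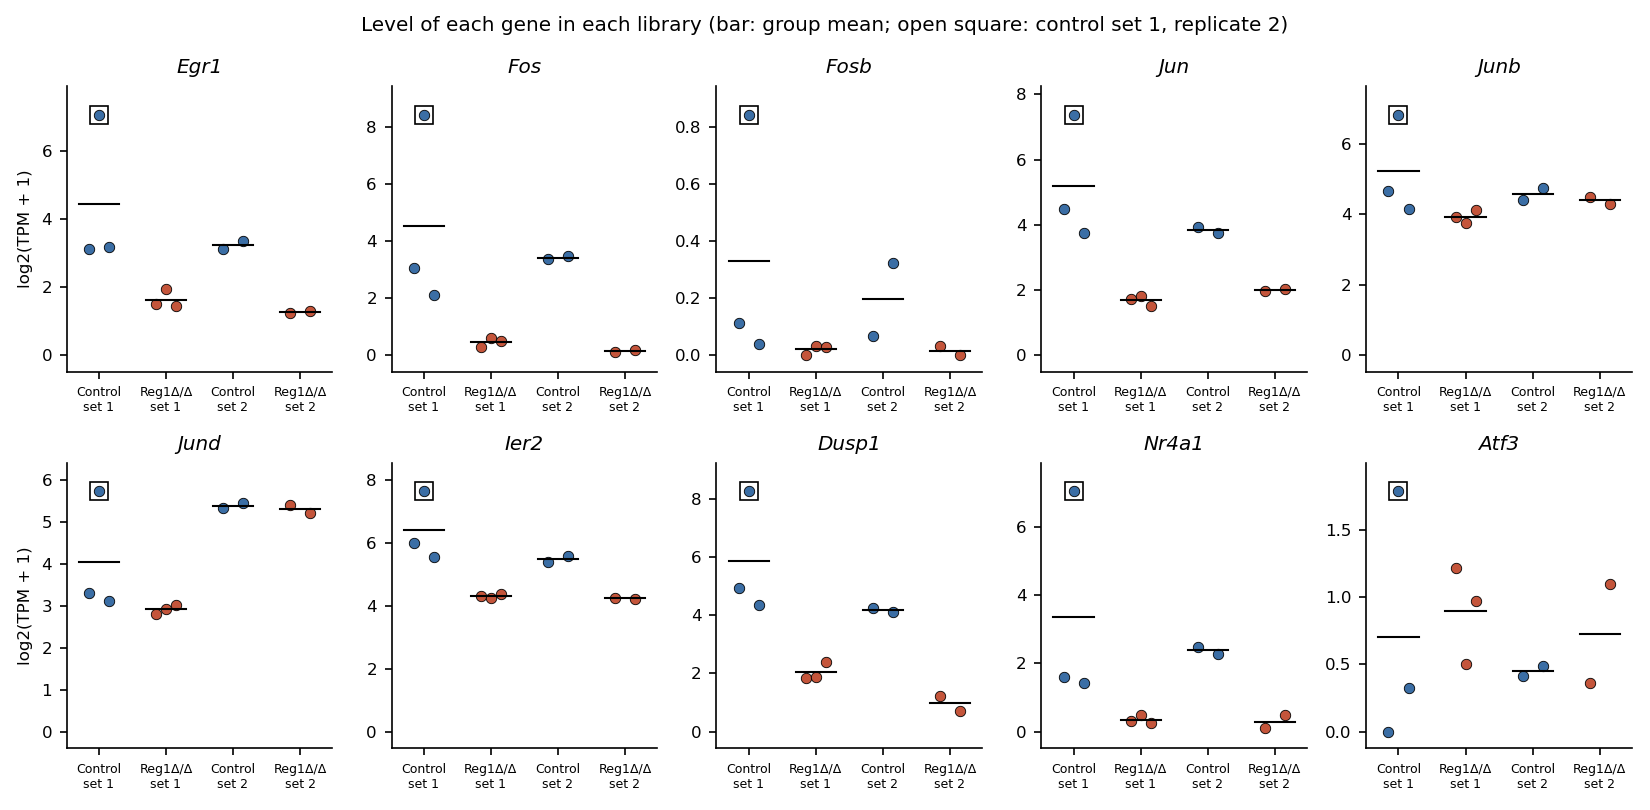
Each panel plots 1 gene, with log2(TPM + 1) on a linear axis that differs between panels and 1 point per library, blue for controls and red for libraries labelled Reg1Δ/Δ, the bar being the group mean. The open square marks replicate 2 of the set 1 controls, which is the highest point in every panel, and for Fos, Dusp1, Jun, Nr4a1, Egr1 and Ier2 all red points lie below all blue points of their set.

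Fos had the lowest log2 fold change of the 8 tested members with all libraries in the fit. Its level was 7.28, 345 and 3.35 TPM in the set 1 controls and 9.35 and 10.1 TPM in the set 2 controls. In libraries labelled Reg1Δ/Δ it was 0.226, 0.525 and 0.417 TPM in set 1 and 0.0759 and 0.117 TPM in set 2. The lowest control was thus 6.38-fold above the highest library labelled Reg1Δ/Δ, and the groups did not overlap in either set. The log2 fold change was −3.75 (SE 0.999, FDR = 0.0105, limma) and −2.65 (SE 0.271, FDR = 9.43e-05) without the outlying control. With that control kept, the call was lost in set 1 alone (FDR = 0.0644). The pseudocount of 1 understates the fall of a gene that ends below 1 TPM. The gene level sums coding and non-coding transcripts, and the coding transcript alone changed by −3.15 (FDR = 0.0641, limma over transcripts). Fosb, a close relative of Fos, was at 0.0270 to 0.792 TPM in controls and at 0 to 0.0221 TPM in libraries labelled Reg1Δ/Δ, too low for the fit.

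Jun, the main partner of Fos, was at 21.3, 165 and 12.5 TPM in the set 1 controls and 14.2 and 12.3 TPM in those of set 2. It was at 2.32, 2.52 and 1.82 TPM and at 2.87 and 3.04 TPM in the libraries labelled Reg1Δ/Δ of the respective sets. No library labelled Reg1Δ/Δ reached a control, and the log2 fold change was −2.85 (SE 0.622, FDR = 0.00369, limma), or −2.17 (SE 0.188, FDR = 3.95e-05) without the outlying control.

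Junb and Jund did not pass the test. Junb was at 24.6, 113 and 16.8 TPM in the set 1 controls against 14.1, 12.5 and 16.3 TPM, and at 20.4 and 25.8 TPM in the set 2 controls against 21.8 and 18.7 TPM. Its groups were apart in set 1, the nearest libraries being 16.8 and 16.3 TPM, and overlapped in set 2. The log2 fold change was −0.85 (95% interval −1.88 to 0.19, FDR = 0.149, limma) and −0.35 (−0.70 to 0.01, FDR = 0.1) without the outlying control. Jund, which is present in unstimulated cells in many tissues, was at 8.97, 52.3 and 7.68 TPM against 5.97, 6.57 and 7.17 TPM in set 1. In set 2 it was at 39.5 and 42.7 TPM in controls and 41.2 and 36.3 TPM in libraries labelled Reg1Δ/Δ. The genotypes overlapped in set 2, while the libraries labelled Reg1Δ/Δ were 5.90-fold higher in set 2 than in set 1. Its log2 fold change was −0.72 (95% interval −1.76 to 0.32, FDR = 0.219, limma), and −0.20 (−0.45 to 0.05, FDR = 0.158) without the outlying control.

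The makeup of the AP-1 transcript pool followed from these levels. Fos, Fosb, Fosl1 and Fosl2 together held 9.24 to 14.1% of the summed TPM of the 7 Fos and Jun family genes in 4 controls and 51.3% in the outlying control. In libraries labelled Reg1Δ/Δ they held 0.814 to 3.54%. Jun alone held 13.1 to 33.8% in controls and 4.33 to 11.2% in libraries labelled Reg1Δ/Δ. Junb was the largest share in the set 1 libraries labelled Reg1Δ/Δ (55.9 to 62.9%), and Jund in those of set 2 (61.7 and 62.1%). The same genes led in the 4 controls other than the outlying one. Junb led in set 1 replicates 1 and 3 (39.1 and 41.3%), and Jund in set 2 (45.8 and 45.5%). The sum of the 7 genes was 40.7 to 678 TPM in the set 1 controls and 22.4 to 25.9 TPM in set 1 libraries labelled Reg1Δ/Δ, and 86.3 and 93.8 TPM against 66.4 and 58.8 TPM in set 2. These are shares of RNA summed over all transcripts of each gene, and no protein was measured here. The coding transcript held 43.0 to 77.3% of the Fos level in controls, against 100% for Jun and for Jund in each library.

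**Figure D2:**
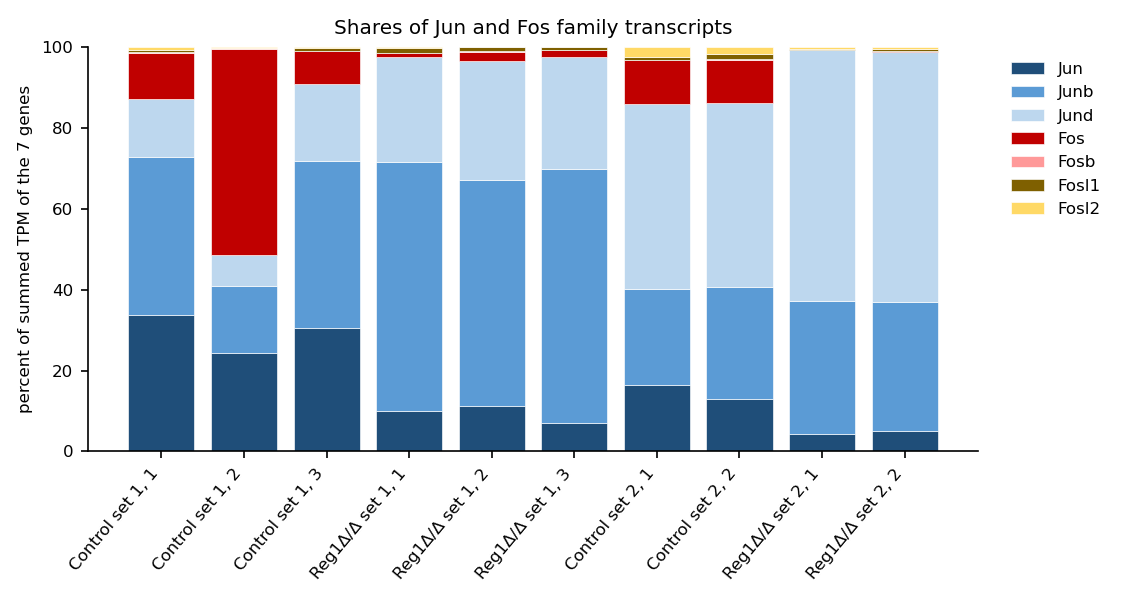
Stacked bars give the percent of the summed TPM of 7 genes held by each, for each library. Fos family genes (red and yellow shades) held 51.3% in control set 1, replicate 2, 9.24 to 14.1% in the other controls and at most 3.54% in libraries labelled Reg1Δ/Δ.

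Dusp1 had the lowest log2 fold change of the members outside AP-1. It was at 29.4, 303 and 19.3 TPM in the set 1 controls and at 17.8 and 16.4 TPM in set 2. The libraries labelled Reg1Δ/Δ held 2.60, 2.64 and 4.22 TPM in set 1 and 1.34 and 0.632 TPM in set 2, all below every control. The log2 fold change was −3.57 (SE 0.632, FDR = 0.0011, limma) and −2.88 (SE 0.210, FDR = 1.62e-05) without the outlying control. These levels sum all transcripts of Dusp1. Its coding transcript held 37.1 to 87.5% in controls and 74.8 to 100% in libraries labelled Reg1Δ/Δ. Among all genes tested, 0.823% had a lower log2 fold change than Dusp1 and 0.668% a lower one than Fos, and without the outlying control these shares were 2.36% and 3.30%.

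Egr1, a zinc finger factor that is among the first genes induced by growth factors, was even across the 4 other controls. It was at 7.63 and 7.93 TPM in set 1 and 7.69 and 9.13 TPM in set 2, with 132 TPM in the outlying control. Libraries labelled Reg1Δ/Δ held 1.80, 2.82, 1.73, 1.36 and 1.47 TPM, and none reached a control. The log2 fold change was −2.47 (SE 0.679, FDR = 0.0123, limma), and −1.72 (SE 0.149, FDR = 3.92e-05) without the outlying control. With that control kept, the call was lost in set 1 alone (FDR = 0.0582) and with quantile normalization (FDR = 0.0895).

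Nr4a1, an orphan nuclear receptor, was low in most controls. It was at 2.0, 130 and 1.65 TPM in set 1 and at 4.52 and 3.86 TPM in set 2, against 0.243, 0.392 and 0.181 TPM and 0.0637 and 0.385 TPM in libraries labelled Reg1Δ/Δ. The groups did not overlap in either set. The log2 fold change was −2.64 (SE 0.943, FDR = 0.0391, limma), and −1.58 (SE 0.200, FDR = 0.000301) without the outlying control. With this control kept, the call was lost when any single library of set 2 or any set 1 library labelled Reg1Δ/Δ was left out (FDR 0.0565 to 0.0764), in set 1 alone (FDR = 0.124), without the covariate (FDR = 0.0639), without the filter (FDR = 0.118), with quantile normalization (FDR = 0.201) and with median-of-ratios scaling (FDR = 0.0514).

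Ier2 was the most abundant member in 7 of the 10 libraries. It was at 63.7, 199 and 45.9 TPM in the set 1 controls and 41.1 and 47.0 TPM in those of set 2. In libraries labelled Reg1Δ/Δ it was nearly constant, at 18.8, 17.9, 19.8, 18.1 and 17.7 TPM. The log2 fold change was −1.76 (SE 0.356, FDR = 0.00241, limma), and −1.37 (SE 0.125, FDR = 5.13e-05) without the outlying control. Atf3, a stress-induced partner of AP-1 proteins, was at 0 to 2.45 TPM in controls and 0.284 to 1.33 TPM in libraries labelled Reg1Δ/Δ, with overlap in both sets. Without the outlying control the set 1 controls were at 0 and 0.254 TPM, below the 0.416 to 1.33 TPM of the set 1 libraries labelled Reg1Δ/Δ.

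**Figure D3:**
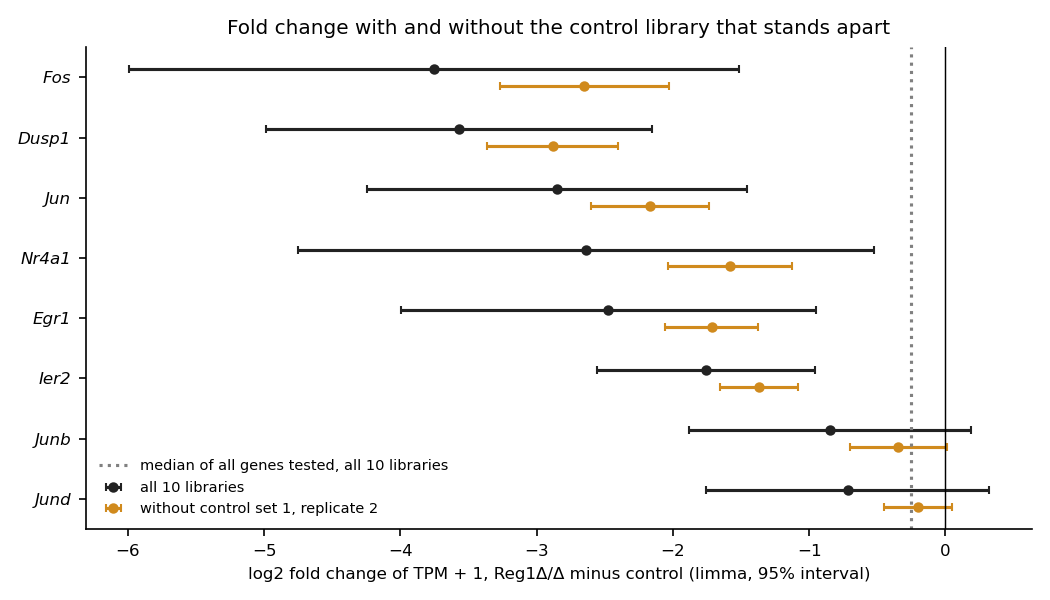
Points are limma log2 fold changes of TPM + 1 (libraries labelled Reg1Δ/Δ minus controls) with 95% intervals, black for all 10 libraries and orange without control set 1, replicate 2. The orange points lie nearer to 0 with narrower intervals, and the intervals of Junb and Jund cross 0 both ways.

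Sample by sample, 6 of the 8 tested members (Fos, Jun, Dusp1, Egr1, Nr4a1 and Ier2) had every library labelled Reg1Δ/Δ below every control of its set in both sets, which held for 31.4% of all genes, and none had the opposite order, which held for 12.7%. In set 1 alone all 8 were below (44.4% of all genes) and in set 2 alone 6 (38.9%). For Fos and Nr4a1 this order was fixed by the filter, and of the other 6 members 4 were below in both sets (28.2% of the 12292 genes that did not pass through controls only), 6 in set 1 (41.7%) and 4 in set 2 (36.0%). In an exact permutation test within sets, taken for each of the 10 genes, the two-sided p was 0.0167 for Fos, Fosb, Jun, Egr1, Dusp1, Nr4a1 and Ier2, the smallest that the 120 assignments allow. It was 0.0333 for Jund, 0.05 for Junb and 0.567 for Atf3. Groups apart in both sets always give 0.0167, so that p only restates their order, which for Fos and Nr4a1 was fixed by the filter. The difference between the sets was tested as an interaction, for which 0.443% of all genes passed FDR under 0.05. No tested member passed (limma, FDR 0.632 to 0.915, none with an unadjusted p under 0.05, as 12.5% of all genes had). Without the outlying control the unadjusted p was 0.0176 for Fos and 0.00583 for Nr4a1, at FDR of 0.270 and 0.200.

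At the level of transcripts, 9 of the 26 passed the filter, and 5 of them were lower at FDR under 0.05 (limma over 31937 transcripts, of which 14.9% were lower), or 7 without the outlying control (12.4% of all transcripts). The 5 were single transcripts of Egr1, Jun and Ier2 and a pair from Dusp1. Besides its coding mRNA (log2 fold change −2.91, FDR = 0.0214), a Dusp1 transcript that retains an intron was at 1.44 to 27.6 TPM in controls and 0 to 0.353 TPM in libraries labelled Reg1Δ/Δ. This transcript and the coding transcripts of Fos and Nr4a1 reached 1 TPM only in controls, so a difference was built into their being tested. Of the other 6 tested transcripts 4 were lower, with and without the outlying control. With such transcripts left out of the background as well, 4070 of 31243 were lower, or 3283 without the outlying control.

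The spans of several members, introns included, overlap those of neighbours. In GENCODE M21, Jun (chromosome 4, 95049034 to 95052222, minus strand) is overlapped by the antisense gene Junos, Jund (chromosome 8, 70698949 to 70700616, plus strand) by the antisense gene Gm11175, and Junb (chromosome 8, 84974484 to 84978718, minus strand) by Prdx2 on the other strand. The Dusp1 record of this release (chromosome 17, 26505590 to 26562128, minus strand), which is a later version than that in the files, spans Ergic1 and 3 small genes. Atf3 overlaps the small RNA gene Gm24748 on the other strand. No overlap was annotated for Fos (chromosome 12, 85473890 to 85477273, plus strand), Fosb, Egr1, Nr4a1 or Ier2. Overlap of exons was not examined. The kit does not mark the strand, so where exons overlap the strand cannot tell reads apart.

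A list of 38 other immediate-early genes was examined next. Of the 28 tested, 22 were lower and 2 higher at FDR under 0.05 (limma), against 37.9% and 15.0% of all genes. The median log2 fold change was −1.51. Without the outlying control 21 were lower, against 35.7% of all genes, with a median of −1.36. Of the 28, 3 (Klf2, Cebpd and Plk2) reached 1 TPM only in controls. The most changed were Id2, an inhibitor of helix-loop-helix factors (44.0 ± 10.3 against 2.82 ± 0.922 TPM, SD, n = 5, FDR = 1.97e-06), Zfp36, which encodes a protein that binds AU-rich elements and speeds mRNA decay (37.3 ± 39.9 against 1.51 ± 0.466 TPM, FDR = 0.000472), and Csrnp1, a nuclear protein gene (18.5 ± 10.1 against 1.01 ± 0.584 TPM, FDR = 1.11e-05). Id2 was not raised in the outlying control (26.6 TPM there, 43.4 to 51.9 TPM in the others), whereas Zfp36 was (107 TPM against 10.1 to 29.4 TPM). The genes that rose were Myc, at 185 ± 27.2 against 256 ± 25.4 TPM (SD, n = 5, FDR = 0.0124), and Gadd45g, at 4.83 ± 0.431 against 10.5 ± 1.79 TPM (FDR = 0.000231). With quantile normalization 14 of the 28 were lower and 3 higher, where 20.5% of all genes were lower.

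**Figure D4:**
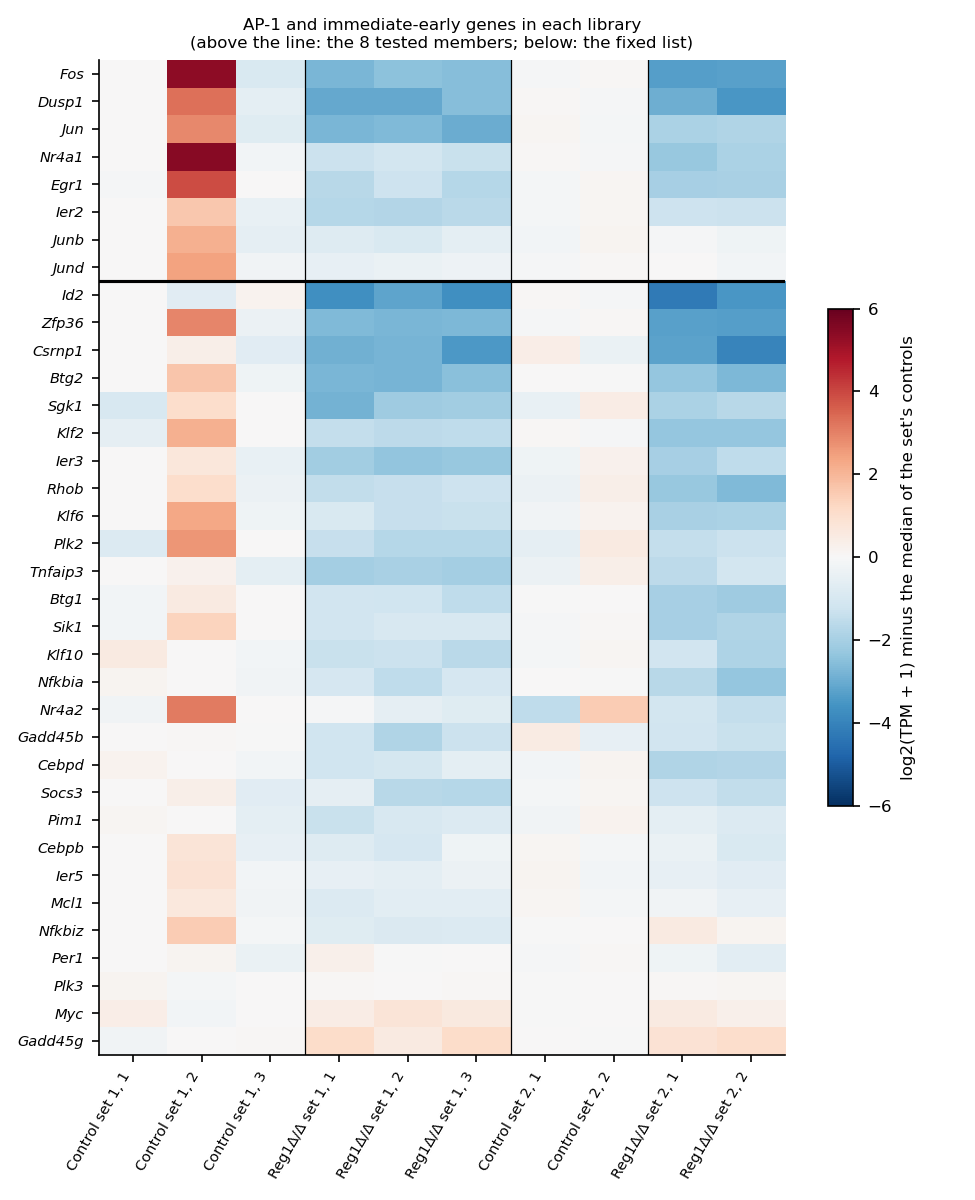
Colours give log2(TPM + 1) minus the median of the controls of the same set, from −6 (blue) to 6 (red), with genes in rows and libraries in columns. Control set 1, replicate 2 is red for all 8 tested members and for some genes of the list, and the columns of libraries labelled Reg1Δ/Δ are blue for most genes, Myc and Gadd45g being red.

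Of 11 tested other AP-1 and ATF genes, 4 were lower and none higher (limma), a share close to the 37.9% of all genes, with a median change of −0.23 on the log2 scale beside −0.25 over the whole table. The counts were the same without the outlying control. Jdp2, a repressor that pairs with Jun proteins, fell from 7.84 ± 2.44 to 1.0 ± 0.331 TPM (SD, n = 5, FDR = 1.08e-05), Batf, a partner of Jun proteins in lymphocytes, from 34.1 ± 11.5 to 15.7 ± 4.83 TPM (FDR = 8.97e-05), and Atf7 from 19.4 ± 2.76 to 10.6 ± 2.02 TPM (FDR = 0.00103). Atf2 was the fourth. Under quantile normalization or median-of-ratios scaling 3 were lower and 3 higher, where 20.5% and 25.2% of all genes were lower.

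Upstream, 9 of the 11 tested SRF, TCF and CREB factor genes were lower and none higher (limma, median log2 fold change −0.77). Over all genes 37.9% were lower and 15.0% higher. Elk3, a TCF partner of SRF, fell from 25.8 ± 6.88 to 3.62 ± 1.06 TPM (SD, n = 5, FDR = 9.35e-07), Mkl1, an actin-regulated coactivator of SRF, from 15.6 ± 4.61 to 2.60 ± 1.43 TPM (FDR = 3.01e-06), and Crtc1, a coactivator of CREB, from 13.4 ± 0.374 to 5.99 ± 1.09 TPM (FDR = 5.54e-05). None of the 11 was at 5 TPM or more and 4-fold above in the outlying control. Without that control 8 were lower (35.7% of all genes). With quantile normalization 4 were lower and 1 higher, where 20.5% of all genes were lower. Of 21 tested MAP kinase pathway genes, 11 were lower and 2 higher (median −0.47), beside the same 37.9% and 15.0% of all genes. Of the 11, Map3k8 reached 1 TPM only in controls. Mapk3, which encodes ERK1, fell from 68.0 ± 7.19 to 27.8 ± 4.87 TPM (SD, n = 5, FDR = 1.50e-05), Map3k5, which encodes the stress kinase ASK1, from 10.8 ± 3.21 to 1.85 ± 0.801 TPM (FDR = 1.41e-06), and Map3k1 from 6.66 ± 6.82 to 1.31 ± 0.941 TPM (FDR = 0.00162). Hras and Mapk9 were the higher genes, and Mapk9 did not pass without the outlying control (FDR = 0.0567), where 9 were lower and 1 higher. With median-of-ratios scaling 6 MAP kinase pathway genes were lower and 7 higher, so no direction is given for this list.

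Other MAP kinase phosphatases and inhibitors, which like Dusp1 limit the signal, were lower in 7 of 10 tested genes and higher in none (limma, median log2 fold change −0.86). Over all genes 37.9% were lower and 15.0% higher. Dusp2 fell from 78.6 ± 53.6 to 5.04 ± 1.78 TPM (SD, n = 5, FDR = 3.08e-06), Dusp5 from 10.6 ± 8.41 to 0.460 ± 0.176 TPM (FDR = 0.000128) and Dusp6 from 31.2 ± 12.2 to 4.89 ± 1.68 TPM (FDR = 1.50e-05). Dusp5 reached 1 TPM only in controls, so a difference was built into its test, and it is among the 7. It alone of this list was at 5 TPM or more and at least 4-fold raised in the outlying control, at 25.4 TPM, and the counts were the same without that library. With quantile normalization 3 of the list were lower and 1 higher, where 20.5% of all genes were lower.

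Stress responses were covered by 2 lists. Of 12 tested heat shock genes none was lower and 6 were higher (limma, median log2 fold change 0.36), against 37.9% and 15.0% of all genes. Hspe1 and Hspd1, which encode the mitochondrial chaperonin, rose from 248 ± 142 to 471 ± 175 TPM (SD, n = 5, FDR = 0.000203) and from 250 ± 122 to 471 ± 193 TPM (FDR = 6.43e-05), and Hsp90aa1 from 946 ± 146 to 1522 ± 145 TPM (FDR = 0.00055). No heat shock gene at 5 TPM or more was 4-fold raised in the outlying control, and the counts were the same without it. Of 10 tested genes of the integrated stress response, 5 were lower and 1 higher (median −0.63), beside 37.9% and 15.0% of all genes. With median-of-ratios scaling 3 were lower and 4 higher, and without the outlying control 6 were lower and 1 higher. Trib3 fell from 5.69 ± 1.46 to 0.723 ± 0.395 TPM (FDR = 3.29e-05), while Asns, asparagine synthetase, rose from 88.1 ± 32.5 to 297 ± 79.5 TPM (FDR = 0.000356). Ddit4 was lower as well (FDR = 0.0085), but its level differed between the sets, at 0.694 to 1.37 TPM in controls against 0.315 to 0.642 TPM in set 1 and 37.5 and 48.2 TPM against 7.76 and 6.87 TPM in set 2.

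**Figure D5:**
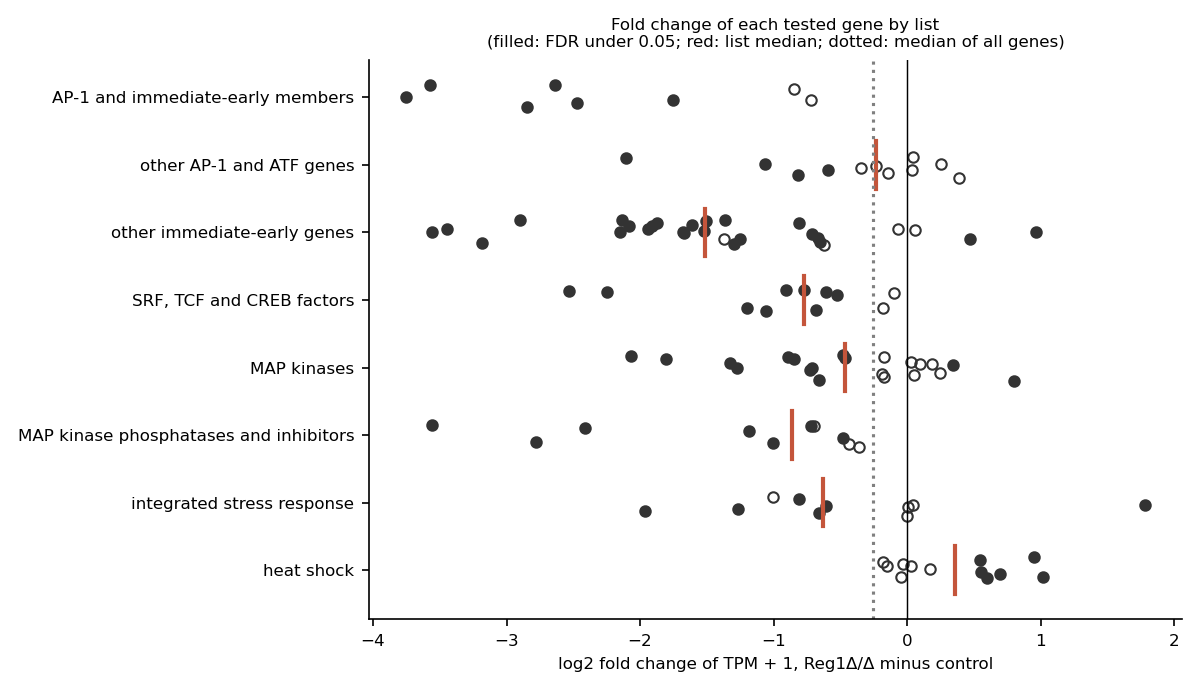
Each point is the log2 fold change of 1 tested gene, filled where FDR was under 0.05, with the median of each fixed list in red and the median of all genes (−0.25) dotted. The 8 tested members, for which no median is drawn, lie between −3.75 and −0.72, and the heat shock median lies at 0.36.

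The genes whose pattern was most like the members' were sought among 7308 coding genes with a mean of at least 10 TPM, by Pearson's r over 10 libraries with the mean standardized level of the members, each value less its set's mean. They were Eif1 (r = 0.980), which encodes a factor for start codon choice, Ppp1r15a (0.973), a stress-induced phosphatase regulator, the zinc finger genes Klf6 (0.948) and Zfp141 (0.941), and Rgs1 (0.941), a regulator of G protein signals. All points share library and scaling, and the outlying control weighs on each r, which was 0.789 to 0.950 over the other 9 libraries. Ppp1r15a was at 164 TPM in the outlying control, 24.2 to 42.9 TPM in other controls and 16.0 to 26.4 TPM in libraries labelled Reg1Δ/Δ, with a log2 fold change of −1.01 that did not pass (limma, FDR = 0.0785), whereas without the outlying control it was −0.54 and passed (FDR = 0.0400). Rgs1 was at 367 TPM, 12.3 to 46.5 TPM and 3.25 to 9.53 TPM in the same order (log2 fold change −2.75, FDR = 0.00429, or −2.08 without the outlying control). Eif1 changed by −0.19 (FDR = 0.193).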

How the data were processed

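RNA-seq of sorted CD34- HSCs was available for 10 mice in 4 groups (3 and 3 in set 1, 2 and 2 in set 2, by sample name). The authors aligned reads to GRCm38 with STAR and estimated TPM with Salmon 0.9.1, and they deposited log2(TPM + 1) on the log2 scale per transcript. The labels name a SMART-Seq v4 kit and the study's methods another SMARTer version. The log was undone and TPM added per gene. The 12874 genes that reached 1 TPM in 5 or more libraries entered limma 3.58.1 (R 4.3.3) on log2(TPM + 1), pseudocount 1, set as covariate, with Benjamini-Hochberg FDR over all of them. Exact permutation tests were run within sets. The scripts were tested on simulated data. Python 3.11.15, pandas and matplotlib made tables and plots. The header of set 2, Reg1Δ/Δ replicate 2 carried the name of replicate 1 of that group, with other values, and the file record was followed. Members and gene lists were chosen with earlier results of these data known. Named genes were the members, Zc3h12a, up to 3 called genes per list with the greatest change and at least 5 TPM, and the 5 of most similar pattern. Alternatives were 2 other filters (none, or 1 TPM in all libraries), pseudocount 0.1, the replicate block, no covariate, either set by itself, 4 other scalings or sums (quantile, median-of-ratios, coding rescaling, coding transcripts), a variance trend, array weights, and every library dropped once. One HSC marker is not reported here.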

Additional observations from a re-analysis of the deposited data

Results flagged for a closer look

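In groups of 5 libraries, a library was singled out where its gap to the nearest value, divided by the range of the group, exceeded 0.71 (Dixon's 95% critical value). Of 20 groups (10 genes in each genotype), 8 were singled out, where chance gives about 1, and all 8 through the high value of set 1 control replicate 2. The ratio was 0.988 for Egr1, 0.98 for Fos, 0.978 for Nr4a1, 0.955 for Dusp1, 0.941 for Jun, 0.906 for Junb, 0.857 for Ier2 and 0.837 for Atf3. For Atf3 the value behind it was 2.45 TPM, against at most 0.399 TPM in the other controls. Fosb and Jund in controls, and all 10 genes in libraries labelled Reg1Δ/Δ, were not singled out. The 8 ratios come from 1 library and are not 8 separate events. What sets this library apart was not tested.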

How the results depend on the processing

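Of the 8 members tested, 6 were lower. With a TPM of at least 1 required in every sample, 3 of 5 tested were lower (35.3% of all genes there), Fos, Dusp1 and Nr4a1 being removed by the filter, and in set 1 alone 3 of 8, near the 38.3% of all genes lower there. In the latter Fos (FDR = 0.0644), Egr1 (FDR = 0.0582) and Nr4a1 (FDR = 0.124) were lost, and without the outlying control, a setting added after the data were seen, set 1 alone gave 6. Egr1 was also lost with quantile normalization (FDR = 0.0895), where 4 of 8 members and 20.5% of all genes were lower. With each library left out in turn the count was 5 to 6, where 34.2 to 40.7% of all genes were lower. In these settings 6 to 8 members had non-overlapping groups, 8 when set 2 control replicate 1 or set 2 Reg1Δ/Δ replicate 1 was left out. Leaving a library out makes non-overlap easier for every gene, and its share over all genes is given only with all libraries (31.4%). No member changed direction or was called higher in any of the 25 other settings, and no interaction passed in any of the 7 tried.

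Scaling moved the whole table. The median log2 fold change of all genes was −0.25 as deposited, 0.14 after quantile normalization and 0.10 after median-of-ratios scaling, and calls went from 4880 lower and 1933 higher to 2636 and 3861, or 3245 and 4334. Over these 2 scalings Dusp1 was at −2.91 and −3.22, Fos at −3.09 and −3.51, and Jund at −0.28 and −0.33. Over all settings the count of lower genes ran from 12 to 22 for other immediate-early genes, 2 to 6 for other AP-1 and ATF genes, 3 to 9 for SRF, TCF and CREB factors, 3 to 11 for MAP kinases, 3 to 8 for phosphatases and inhibitors and 2 to 6 for the integrated stress response, and that of higher heat shock genes from 2 to 8. Replicate numbers did not pair the samples (correlations of same-numbered deviations were 0.0334, 0.175 and 0.0683 in set 1 and −0.0544 in set 2). With the replicate number as a block 6 members were lower and 0 higher, where 35.3% of all genes were lower. TPM keeps no depth, so counting error is unknown.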
